A study of Mus musculus with 24 samples.

Results

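Open chromatin and the active-chromatin mark H3K27ac were described at 9 genes of the Notch pathway in mouse embryonic cartilage. The genes were the receptors Notch1, Notch2 and Notch3, the ligands Jag1, Jag2 and Dll1, and the target genes Hes1, Hey1 and Hey2, taken from 21631 protein-coding genes on the autosomes and the X chromosome. A called peak was given to the gene whose span held the midpoint of the peak, or else to the nearest protein-coding gene within 1 Mb, in the mm10 build. All 9 genes passed the filter on low values and were among the 16173 genes tested.

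Notch receptors sit in the cell membrane and are bound by Jagged and Delta-like ligands on a neighbouring cell. Binding leads to cleavage of the receptor, and its freed intracellular part joins the DNA-binding protein RBPJ in the nucleus and switches on the Hes and Hey genes, which encode repressors of transcription. In developing cartilage the pathway is known to act on the passage of progenitors into chondrocytes and on the maturation of those cells.

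All groups were wild-type C57BL/6 mouse embryos, and the labels of the libraries used name no treatment. ATAC-seq, in which a transposase cuts accessible DNA, covered 3 libraries of Meckel's cartilage (MC, the rod of cartilage in the lower jaw) at E14.5, 3 libraries of E14.5 forelimb cartilage (FL) and 2 libraries of the mandible at E12.5. H3K27ac was measured by CUT&Tag in 3 libraries each of E14.5 MC and E14.5 FL. The E12.5 libraries came from whole mandibular processes per the labels' protocols, while their tissue tag names Meckel's cartilage and their description names another stage and assay. The protocols were followed for these libraries. The labels do not say whether replicates were separate animals or pools, so p-values measure the spread between these libraries only, which may be technical.

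The deposited lists held 43205 to 54192 ATAC peaks in MC, 47152 to 70636 in FL and 74706 and 70042 in the E12.5 mandible, and the read depth behind them is unknown. The E12.5 libraries stood apart from each other: replicate 1 listed 85.6 Mb of peaks and replicate 2 listed 48.2 Mb, and their shared bases made up 0.198 of their joined bases, against 0.363 to 0.470 between MC libraries and 0.425 to 0.452 between FL libraries. Of 15 chondrocyte marker genes, all 15 had an assigned ATAC peak in every library. Their summed peak length, over the 3 libraries each, was 125 to 134 kb in MC, then 123 to 137 kb in FL, with 116 and 101 kb in the E12.5 mandible, after each list was scaled to the same total. Limb identity genes summed to 5.42 to 6.61 kb in MC against 24.9 to 27.9 kb in FL, and jaw identity genes to 46.1 to 56.1 kb in MC against 22.6 to 25.2 kb in FL. E12.5 replicates 1 and 2 had 16.6 and 11.3 kb at limb identity genes, above every MC library and below every FL library. At jaw identity genes they had 46.6 and 52.0 kb. Endothelial genes, which mark a cell type known to use Notch signalling and of which 10 to 12 of 12 had a peak in each library, summed to 53.1 to 58.5 kb in MC, 56.8 to 64.0 kb in FL, and 47.3 and 58.8 kb in the E12.5 mandible. Skeletal muscle genes summed to 6.39 to 10.7 kb in MC, to a median of 11.4 kb in FL, where replicate 3, at 6.27 kb, lay below every MC library and the other two lay above, and to 48.3 and 13.8 kb in E12.5 replicates 1 and 2. The part of other cell types in the results below was not tested, and in bulk tissue a change in the share of a cell type and a change within its cells cannot be told apart.

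Every one of the 9 Notch genes carried open chromatin in MC and in FL. None of the 9 passed the test in any of the 3 comparisons of assigned peak length, and neither did any other gene. The genes are therefore described by whether the libraries of a pair of groups overlapped, and by which individual sites were called in every library of one group and in none of the other. At the scale of single sites, the bases just upstream of the Dll1 start lay under ATAC peaks in FL and E12.5 libraries and hardly in MC libraries. The Hey2 start was open in every library, but its H3K27ac peak was in the combined MC list alone. The signal of that peak (23811) was below the lowest in the FL list (25799), so the lists do not place the mark in MC alone.

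The 250 bases upstream of the start were available from RefSeq (GRCm38.p6) for 7 of the 9 genes, all but Hes1 and Hey1. They are shown for a receptor and a ligand whose upstream bases were open in nearly every library, for Dll1, whose openness varied with the group, and for Hey2, whose H3K27ac did. Capitals mark matches to 4 short motifs on either strand: TGGGAA, the core bound by RBPJ, and the motifs CACGTG or CACGCG or CACNAG, which Hes and Hey proteins are known to bind.
Notch1 (chr2:26503823-26504072, minus strand): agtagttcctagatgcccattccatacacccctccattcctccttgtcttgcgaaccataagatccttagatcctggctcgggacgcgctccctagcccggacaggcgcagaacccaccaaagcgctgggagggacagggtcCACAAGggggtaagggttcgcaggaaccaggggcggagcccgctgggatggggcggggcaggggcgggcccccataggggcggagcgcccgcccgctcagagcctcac
Jag1 (chr2:137116521-137116770, minus strand): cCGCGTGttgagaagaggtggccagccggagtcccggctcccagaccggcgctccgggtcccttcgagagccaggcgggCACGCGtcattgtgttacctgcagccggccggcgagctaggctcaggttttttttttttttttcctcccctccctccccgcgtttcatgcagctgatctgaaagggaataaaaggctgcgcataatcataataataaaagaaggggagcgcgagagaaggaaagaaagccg
Dll1 (chr17:15376933-15377182, minus strand): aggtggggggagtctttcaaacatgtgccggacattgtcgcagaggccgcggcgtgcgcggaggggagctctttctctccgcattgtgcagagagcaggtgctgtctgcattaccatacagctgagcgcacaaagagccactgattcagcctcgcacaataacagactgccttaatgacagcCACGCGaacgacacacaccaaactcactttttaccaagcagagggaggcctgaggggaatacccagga
Hey2 (chr10:30842784-30843033, minus strand): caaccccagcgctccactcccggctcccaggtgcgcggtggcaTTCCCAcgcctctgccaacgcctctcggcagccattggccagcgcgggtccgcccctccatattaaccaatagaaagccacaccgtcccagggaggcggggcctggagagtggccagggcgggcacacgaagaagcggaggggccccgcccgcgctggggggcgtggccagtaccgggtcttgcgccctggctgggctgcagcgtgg

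The Hey2 sequence held the only match to TGGGAA among the 7 windows, as TTCCCA on the other strand with its first base at -207 from the start. That motif occurred in 21.6% of the upstream windows of 32851 promoters. CACGCG was found in the windows of Notch2, Jag1 and Dll1, with 2 matches in Jag1, and in 7.62% of all windows. CACNAG was found at all 3 receptors, once in Notch1, once in Notch2 and at 2 places in Notch3, and in 36.7% of all windows. CACGTG was in none of the 7 windows and in 6.02% of all. No motif match overlapped another, and a match describes letters only, not a bound site. The windows were rich in G and C, from 56.0% at Dll1 to 87.2% at Jag2, against a median of 52.4% over all windows.

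Upstream of Dll1, which encodes a Delta-like ligand, ATAC peaks covered 0%, 0% and 12.8% of the 250 bases in MC libraries 1, 2 and 3, against 100% in each of the 3 FL libraries. E12.5 replicates 1 and 2 covered 98.0% and 75.2%. Every MC library thus lay below every FL library and below both E12.5 libraries, and every FL library above both E12.5 libraries. Such a separation was seen in 0.546% of 32619 windows for MC below FL, in 0.883% for MC below the E12.5 mandible and in 2.09% for FL above it. None of the 7 windows was separated the other way, which 0.549%, 1.84% and 1.32% of all windows were. The 1 Dll1 window was noticed among the 7 after the values were seen, so this is a description with no test. The combined lists, taken as pooled from the same groups and so no separate evidence, had the same edge. There the peak at the start spanned chr17:15374647-15376747 in MC and chr17:15375162-15377236 in FL, with the Dll1 start at base 15376932 on the minus strand. The MC peak ended inside the gene and the FL peak crossed the start, as did the combined E12.5 peak at chr17:15374300-15377160. H3K27ac covered the whole Dll1 window in both cartilages.

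The windows of Notch2, Jag1 and Hey2 were fully covered in all 8 libraries, as were 21.7% of all windows. Notch1 was fully covered in 7 libraries and to 67.6% in MC replicate 1. Notch3 and Jag2 varied within groups: Jag2 was covered to 0%, 69.2% and 86.4% in MC, to 0%, 100% and 0% in FL, and to 50.4% and 4.4% at E12.5. No order of the groups can be read from these last 2 genes.

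**Figure D1:**
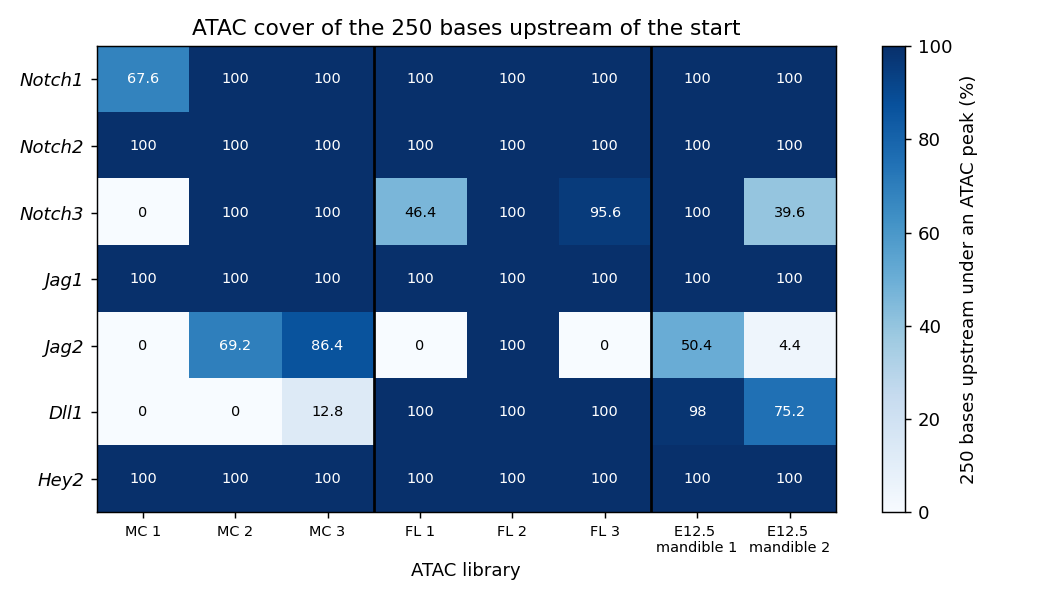
Percent of the 250 bases upstream of the start that lay under a called ATAC peak, for 7 Notch genes (rows) in 8 libraries (columns: MC, FL, E12.5 mandible), with darker blue for more cover. Dll1 is at 0, 0 and 12.8% in MC and at 100% in the 3 FL libraries, while Notch2, Jag1 and Hey2 are at 100% throughout.

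The first question was how the pathway differed between jaw and limb cartilage. Assigned ATAC peak length was longer in every MC library than in every FL library at Notch1 and Jag2, and shorter in every MC library at Jag1 and Hey2. Among all genes tested, 9.18% had every MC library above every FL library and 8.98% had every one below, shares at which about 1 of 9 genes would be found in each direction. None of the 16173 genes reached an adjusted p of 0.05 (0% called) with limma on log2(scaled kb + 0.5), and 849 (5.25%) had an unadjusted p under 0.05, Jag2 among the 9. This fit took its error from all 8 libraries, the 2 E12.5 libraries included. With MC and FL fitted alone, 2045 of the 16173 genes had an unadjusted p under 0.05 (limma), Notch1, Jag2 and Hey2 among the 9. The SEs of these 3 genes were then 0.25, 0.40 and 0.22. After adjustment 8 genes passed, and none of the 9 was among them. The median difference of the 9 genes was -0.04 on the log2 scale, beside 0.03 over all genes. Lengths here are kb of called peaks per gene after scaling each list to the same total, and compare libraries for 1 gene, not genes with each other.

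Notch1, a receptor used in many tissues, had 10.9, 15.5 and 18.7 kb of ATAC peaks in the MC libraries and 8.40, 9.99 and 8.15 kb in the FL libraries. The groups did not overlap, but MC spread over a much wider range. The log2 difference was 0.70 ± 0.39 (SE, limma, n = 3 and 3; adjusted p = 1). Notch2 had 9.75, 14.7 and 18.8 kb in the MC libraries against 14.2, 14.6 and 14.3 kb in the FL libraries, so the MC libraries lay on both sides of the FL libraries. Notch3, a receptor best known from the smooth muscle of vessels, had 6.52, 11.0 and 6.64 kb in the MC libraries against 5.97, 7.02 and 8.13 kb in the FL libraries, which overlapped as well. The log2 differences of Notch2 and Notch3 were -0.04 (95% interval -0.93 to 0.84) and 0.15 (-0.66 to 0.96), so a change of over 1.5-fold either way was within the interval of each.

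Among the ligands, Jag2 had 4.04, 12.7 and 8.53 kb in the MC libraries against 2.56, 3.18 and 3.51 kb in the FL libraries. Its difference was the widest of the 9, at 1.20 ± 0.52 on the log2 scale (SE, limma, n = 3 and 3; adjusted p = 0.946), and MC replicate 1 lay close to the FL values. Jag1, a ligand known to be needed for craniofacial and skeletal development, had 12.8, 7.74 and 12.7 kb in the MC libraries against 16.8, 14.9 and 16.9 kb in the FL libraries. MC replicate 2 was lowest, and the log2 difference was -0.56 ± 0.53 (SE, limma, n = 3 and 3; adjusted p = 1). Dll1 had 2.90, 6.10 and 5.46 kb in the MC libraries against 7.73, 6.77 and 5.74 kb in the FL libraries, with 1 MC library inside the FL range (log2 difference -0.49, 95% interval -1.29 to 0.31).

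Of the targets, Hey2 had 3.42, 5.20 and 3.69 kb in the MC libraries against 7.35, 7.17 and 8.28 kb in the FL libraries, with no overlap. Its log2 difference was -0.83 ± 0.42 (SE, limma, n = 3 and 3; adjusted p = 0.996). With peaks given to genes within 100 kb only, this difference was -0.31 and that of Jag1 was -0.28, with distal peaks left out. Hes1, the best known Notch target, had 22.0, 24.1 and 29.9 kb in the MC libraries against 28.0, 25.7 and 25.2 kb in the FL libraries. Hey1 had 4.43, 0.898 and 1.67 kb in the MC libraries against 1.03, 0.993 and 1.53 kb in the FL libraries, and its log2 difference of 0.56 rested on MC replicate 1, being 0.06 without it. Peaks over Hey1 that were counted for another gene are left out of these lengths. Unscaled, MC libraries 1, 2 and 3 had 3.885, 0.778 and 1.54 kb assigned. Over the gene and 1 kb either side they had 4.234, 2.376 and 3.075 kb.

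**Figure D2:**
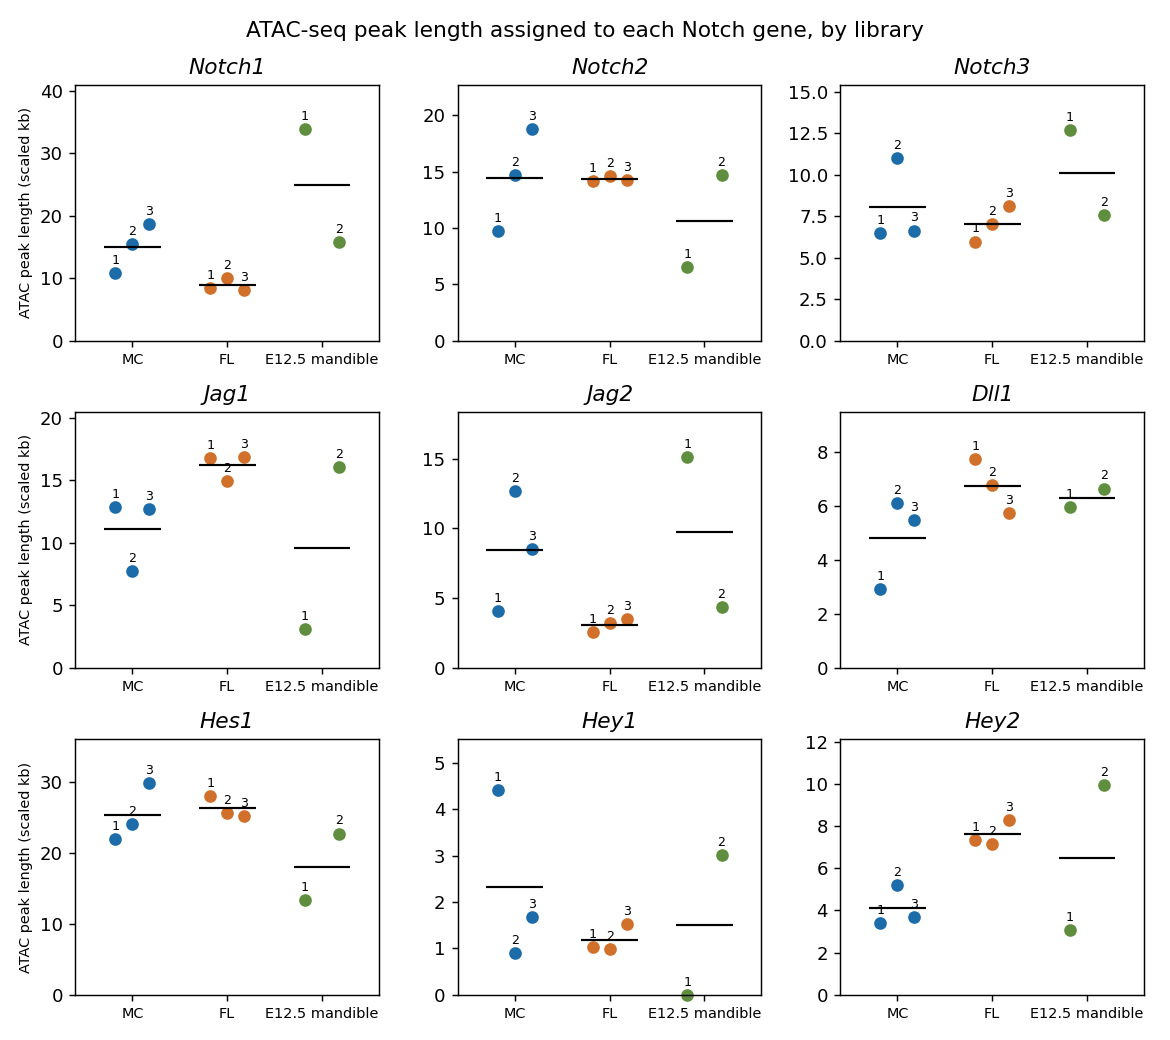
ATAC peak length assigned to each of the 9 Notch genes (y axis, kb scaled to the same total per list, starting at 0, a separate scale per gene) in the MC, FL and E12.5 mandible libraries. Points are libraries with their replicate number and bars are group means; Notch1 and Jag2 lie higher in MC than in FL, Jag1 and Hey2 lower, and the E12.5 replicates lie far apart at most genes.

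The next question was how these genes differed between E14.5 cartilage and the E12.5 mandible. For MC, all 9 genes had overlapping libraries, where 18.4% of all genes had none that overlapped, and none passed the test (0% of 16173 genes; 915 with an unadjusted p under 0.05, which is 5.66%, and none of the 9). For FL, Notch1 and Jag2 were lower in every library than in both E12.5 libraries and Hes1 was higher, where 9.76% and 16.5% of all genes did so. Again 0 genes passed (0%), while 1997 (12.3%) had an unadjusted p under 0.05, Notch1 among the 9. The median difference of the 9 genes was -0.10 for MC and 0.33 for FL, beside 0.23 and 0.25 over all genes. Both comparisons share the 2 E12.5 libraries. MC is the cartilage rod and the E12.5 libraries are mandibular processes, so stage and tissue cannot be told apart for MC, nor stage, tissue and site for FL.

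Those 2 libraries lay far apart at most of the 9 genes. Notch1 had 34.0 and 15.8 kb in E12.5 replicates 1 and 2, Jag2 had 15.1 and 4.35 kb, and Notch3 had 12.7 and 7.59 kb. Replicate 1 was the higher one at these 3 genes. It was the lower one at Jag1, with 3.09 and 16.0 kb, at Notch2, with 6.57 and 14.7 kb, and at Hes1, with 13.4 and 22.7 kb. At Hey2 the values were 3.07 and 9.92 kb, and at Hey1 replicate 1 was listed at 0 kb and replicate 2 had 3.01 kb. The 0 at Hey1 is one of assignment and does not mean closed chromatin. The region over the gene (chr3:8664295-8668666) was called in all 8 libraries, with 1561 bases under a peak in every one. Dll1 alone was close, with 5.95 and 6.64 kb.

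For E14.5 FL minus E12.5 mandible, the log2 differences were -1.35 ± 0.43 at Notch1 (SE, limma, n = 3 and 2; adjusted p = 0.397) and -1.29 ± 0.58 at Jag2 (adjusted p = 0.404). Hes1 differed by 0.57 ± 0.37 (SE, limma, n = 3 and 2; adjusted p = 0.461). For E14.5 MC minus E12.5 mandible, the widest differences were 0.90 ± 0.78 at Hey1 and -0.64 ± 0.43 at Notch1 (SE, limma, n = 3 and 2; adjusted p = 0.725 and 0.712). The Hey1 value takes in the 0 kb of E12.5 replicate 1, which is one of assignment. These values turned on which E12.5 library was kept. Without E12.5 replicate 2, so that replicate 1 stood alone, the Jag1 difference for MC was 1.66, and without E12.5 replicate 1 it was -0.55. With any 1 library left out, the difference for MC ran from -0.51 to 2.30 at Hey1. For FL it ran from -1.89 to -0.80 at Notch1, from -2.13 to -0.45 at Jag2 and from 0.20 to 0.94 at Hes1. A group of 1 library has no spread of its own, so only the sizes are given.

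**Figure D3:**
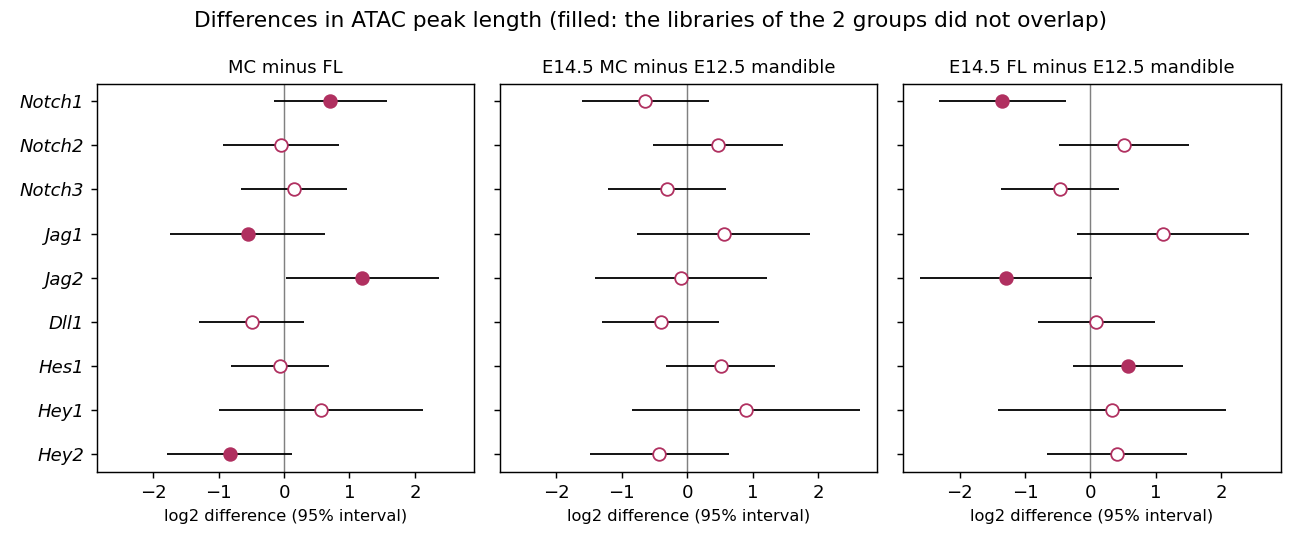
Log2 differences in scaled ATAC peak length (x axis) for the 9 Notch genes in 3 comparisons, with 95% intervals from limma; filled points mark genes whose libraries did not overlap. All intervals reach across 0 but those of Jag2 for MC minus FL and Notch1 for E14.5 FL minus E12.5 mandible, and none of the 27 differences passed the test after adjustment.

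Merging the peaks of all 8 libraries gave 157305 regions, of which 215 belonged to the 9 genes. Hes1 had 51 of them, Jag1 42, Notch1 and Notch2 30 each, Hey2 18, Notch3 and Dll1 16 each, and Jag2 and Hey1 6 each. Of the 215, 70 had their midpoint within a gene span, and distances below are from the midpoint. Notch2 had 29 of its 30 regions inside its long gene (chr3:98013538-98150367), whereas Hes1 (chr16:30065357-30067796) had none and drew regions from chr16:29880447 to 30156445, and Jag1 (chr2:137081451-137116520) had 8 of 42 inside. Within 1 kb of a gene end lay 6.51% of these regions, against 13.7% of all regions, and 39.5% were called in 1 library alone, against 52.1%. The spans carry no exon or UTR annotation here, so regions are given as inside or outside a gene.

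Regions called in all 8 libraries numbered 23 of 215, beside 10% of all regions. A region merges peaks that touch in any library, so the peaks of different libraries can lie apart within it, and 20 of the 23 held a base under a peak in all 8 libraries. Those without one were a 24537 bp region over Jag2, one beyond the end of Notch3 and one at Hes1. The start itself lay under a peak in all 8 libraries at Notch1, Notch2, Jag1 and Hey2, in 7 at Notch3, in 6 at Dll1 and in 1, FL replicate 2, at Jag2. Of the 23, 21 lay under combined H3K27ac in MC and 20 in FL, where 87.9% and 79.1% of all such regions did. At Jag1 the 1 constant region was that over the start (chr2:137113353-137118265), and at Hey2 there was a distal one as well (chr10:30979676-30981069), 138 kb upstream. Hes1 had 6, of which 3, among them the one with no base shared by all 8 libraries, lay 56.3 to 171 kb from the gene.

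Regions called in all 3 MC libraries and no FL library numbered 4, where 0.367% of all regions were of this kind. Of these, 3 held a base under a peak in all 3 MC libraries. They were in the Notch2 gene (chr3:98036990-98037872), 22.8 kb from Hes1 (chr16:30090212-30090917), and 320 kb upstream of Jag1 (chr2:137436130-137437048). The other, 2.5 kb beyond the Jag2 end (chr12:112903415-112907180), is no single site: the MC peaks in it share no base and are joined by peaks of E12.5 replicate 1. Where a call needed 50% of the region covered, the Jag2 and Notch2 regions were no longer in this class and one at Notch3 was. The Hes1 and Jag1 sites were called in no E12.5 library either. Regions called in all 3 FL libraries and no MC library numbered 5, beside 1.62% of all regions, and all 5 held a base under a peak in all 3 FL libraries. These were in the Notch2 gene (chr3:98025425-98026298), in Notch3 2.74 kb from its start (chr17:32163372-32164931), 181 kb from Hes1 (chr16:29883294-29884421), 167 kb upstream of Hey2 (chr10:31009100-31010643), and 529 kb upstream of Jag1 (chr2:137645518-137646139). Notch2, Hes1 and Jag1 thus each had 1 region of either kind. The Notch3 site was also called in both E12.5 libraries and so was absent in MC alone, while the Hey2, Jag1 and Notch2 sites of FL were called in no E12.5 library. Without FL replicate 2 the MC count was 7, and the FL count was 11 without FL replicate 1 or 3 and 9 without MC replicate 3.

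Between stages, 4 regions were called in all MC and no E12.5 libraries (0.892% of all regions), and 10 in both E12.5 and no MC libraries (1.59%). The gene with most of these 10 was Notch1, with 4 regions: 3 lay inside the gene (chr2:26457953-26458841, chr2:26464018-26465528 and chr2:26474676-26476843) and 1 lay 6.07 kb upstream of its start (chr2:26509192-26510584). For FL, 6 regions were called in all FL and no E12.5 libraries (2.48%), and 10 in both E12.5 and no FL libraries (1.82%), of which 6 were at Notch1. The other E12.5 regions that both cartilages lacked were 92.4 kb downstream of the Dll1 start (chr17:15283967-15285070) and 50.0 and 135 kb upstream of Hey2 (chr10:30892396-30893080 and chr10:30976991-30977635). The site 88.4 kb upstream of Jag1 (chr2:137204392-137205447) was called in all 6 cartilage libraries and no E12.5 library. A class of 2 libraries rests on both: with 1 E12.5 library left out, the E12.5 counts were 47 and 43 against MC and 44 and 47 against FL, without replicates 1 and 2 in turn. The counts of MC regions were then 7 and 11, and those of FL regions 7 and 16. Without MC replicate 3 the E12.5 count against MC was 16, and without FL replicates 1 and 3 the FL count was 10 and 16.

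**Figure D4:**
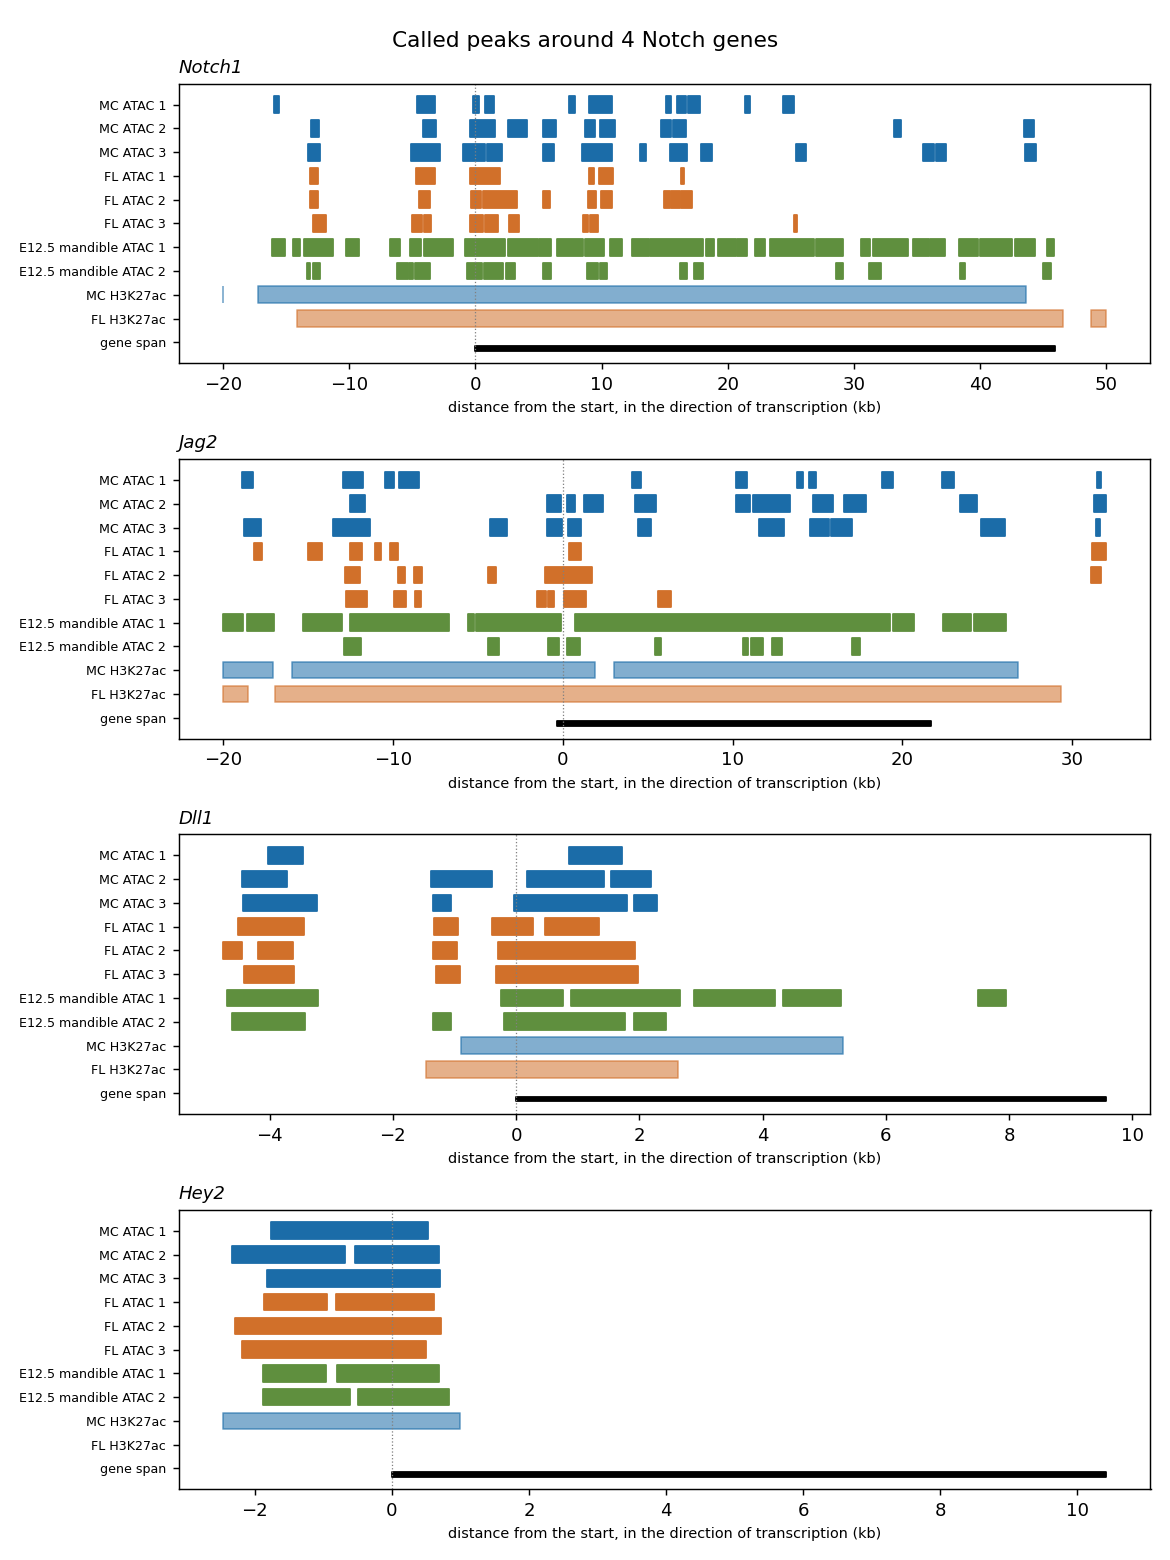
Called peaks around Notch1, Jag2, Dll1 and Hey2 (x axis, kb from the start in the direction of transcription) in each ATAC library and in the combined H3K27ac lists, with MC in blue, FL in orange and the E12.5 mandible in green; the black bar is the gene span. E12.5 replicate 1 lists peaks over most of Notch1 and Jag2 where replicate 2 does not, and the H3K27ac peak at the Hey2 start is in the MC list alone. At Dll1, FL peaks cross the start, while MC peaks stop inside the gene in replicates 1 and 2 and barely cross the start in replicate 3.

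Counted as bases over the gene and 1 kb either side, with no assignment of peaks to genes, ATAC peaks covered 14.6%, 20.2% and 25.2% of Notch1 in the MC libraries, 8.60%, 15.6% and 8.67% in the FL libraries, and 79.2% and 19.6% in E12.5 replicates 1 and 2. MC replicate 1 thus lay below FL replicate 2 by this count, so the groups overlapped. Jag2 was covered to 12.4%, 38.3% and 26.0% in the MC libraries, to 2.93%, 11.4% and 11.7% in the FL libraries, and to 88.7% and 16.3% in E12.5 replicates 1 and 2. Here every MC library lay above every FL library, by little for MC replicate 1. At both genes E12.5 replicate 1 stood far above the other 7 libraries, as the map of called peaks shows.

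The authors' combined ATAC lists, 1 per tissue and stage, have no error to set beside their values. MC over FL, none of the 9 genes was past 2-fold, where 4.88% of genes were higher and 5.45% lower. The log2 ratios were 0.76 at Notch1, 0.66 at Jag2, -0.61 at Jag1 and -0.46 at Hey2, and the median of the 9 was -0.09, beside 0.08 over all genes. By assigned length, MC over the E12.5 mandible, Hey1 was past 2-fold higher and Notch1 and Jag2 past 2-fold lower, where 27.5% of genes were past 2-fold either way. FL over the E12.5 mandible, Jag1 was past 2-fold higher (17.1%) and Notch1 and Jag2 past 2-fold lower (17.9%). As listed, Notch1 had 11.9 kb in MC, 7.80 kb in FL and 43.8 kb in the E12.5 mandible, and Jag2 had 4.76 kb in MC, 3.26 kb in FL and 23.4 kb in the E12.5 mandible. In the single lists, unscaled, E12.5 replicates 1 and 2 had 57.4 and 15.0 kb at Notch1 and 25.5 and 4.13 kb at Jag2. The combined E12.5 values thus lay far above replicate 2 at both genes. At Hey1 the combined E12.5 list had an assigned peak of 0.603 kb, and any peak over the gene counted for a neighbour is left out.

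H3K27ac, which marks active promoters and enhancers, was wide at most of these genes in both cartilages. In the authors' combined lists, peaks assigned to Notch1 summed to 95.3 kb in MC against 95.7 kb in FL, those of Notch2 to 133 kb in MC against 128 kb in FL, and those of Hes1 to 121 kb in 19 peaks in MC and 124 kb in 13 peaks in FL. Jag1 had 51.8 kb in MC against 49.1 kb in FL, and Dll1 had 21.8 kb in MC against 25.3 kb in FL. Notch3 had 33.3 kb in MC against 44.5 kb in FL. With both lists scaled to the same total, these 6 genes differed by -0.26 to 0.23 on the log2 scale. One gene was past 2-fold higher in MC and 1 was past 2-fold lower, where 18.6% and 15.2% of 14350 genes were, and the median over the 9 genes was 0.13, beside 0.04 over all genes.

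The 1 higher gene was Hey2, with a single 3.47 kb peak over its start in MC (chr10:30841781-30845247) and none in FL, where it is listed at 0. Among all upstream windows, 8.36% had H3K27ac in the combined MC list and none in FL, and 5.21% the reverse, which none of the 7 did. The peak had an authors' signal of 23811, while the lowest signal in the FL list was 25799 and in the MC list 16925. It was not among the 30000 peaks of highest signal in its list. In the lists of single libraries, 12.4% and 8.85% of its bases were under a peak in FL replicates 1 and 2, and none in MC replicate 1, 2 or 3, so those lists did not place the mark in MC alone. The Hey2 start was open in all 6 cartilage ATAC libraries.

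**Figure D5:**
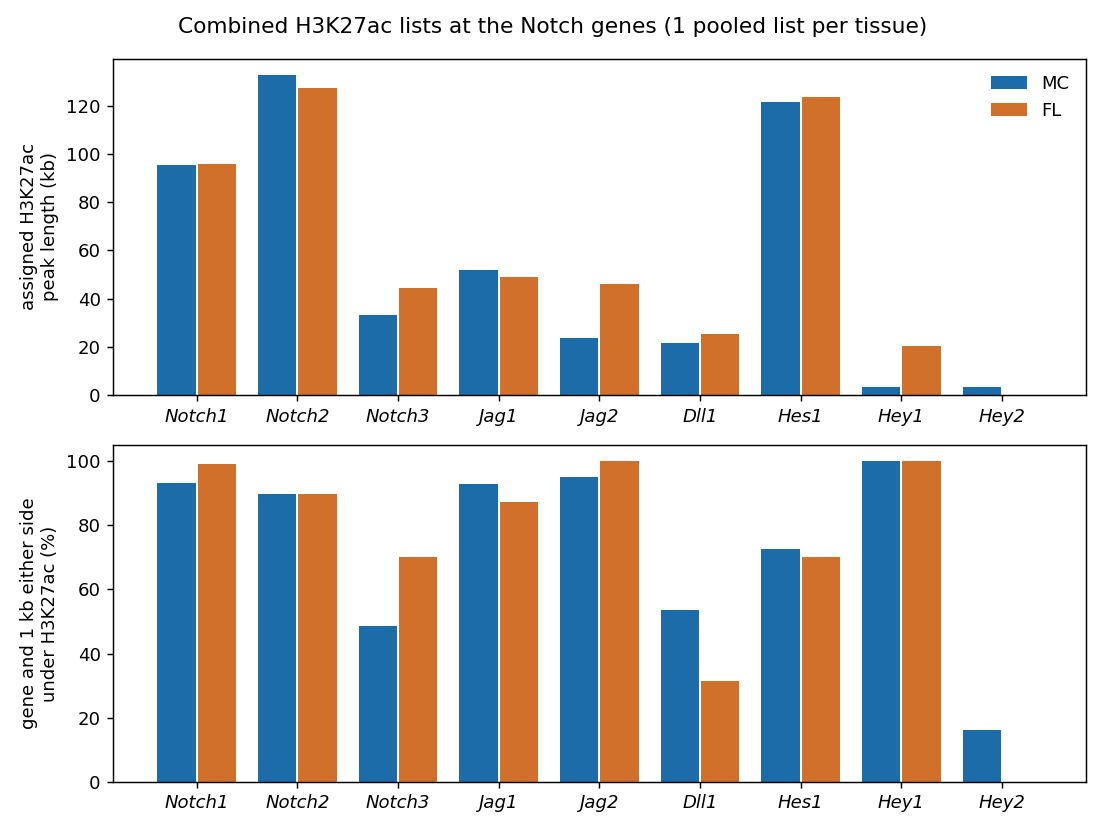
Combined H3K27ac lists at the 9 Notch genes: length of peaks assigned to the gene in kb (top) and percent of the gene and 1 kb either side under any peak (bottom), MC in blue and FL in orange, 1 pooled list per tissue and so no error bars. Hey1 and Jag2 have less assigned length in MC, but their genes are covered to 100% and 95.2% in MC and to 100% in FL.

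The 1 lower gene was Hey1, with 3.28 kb in MC against 20.2 kb in FL, a log2 ratio of -2.17. None of that length lay at the gene. It was made of distal peaks, 1 in MC (chr3:8623153-8626433) and 2 in FL (chr3:8623205-8636343 and chr3:8639932-8646961), 19.9 to 38.6 kb from the gene. The peak over Hey1 itself (chr3:8661405-8674190 in MC and chr3:8657679-8676231 in FL) covered all of the gene in both tissues and had its midpoint in a neighbouring predicted gene, so its length was counted there. Jag2 had a similar split: in FL a single 46.3 kb peak held the gene (chr12:112900187-112946439), while in MC a 23.8 kb peak was counted for Jag2 and a 17.8 kb peak over the start was counted for the neighbour Nudt14. Counted as bases over the gene and 1 kb either side, which was added after seeing the data, the log2 ratio was 0.13 at Hey1 and 0.08 at Jag2, against -2.17 and -0.78 by assigned length, and no gene of the 9 was then past 2-fold lower. By that count Notch3 was covered to 48.7% in MC and 70.0% in FL, and Dll1 to 53.4% in MC and 31.4% in FL.

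The widest H3K27ac peak of Notch1 was the widest of the set, 60.8 kb in MC (chr2:26460199-26521009) and 60.7 kb in FL (chr2:26457259-26517931), and each was covered to 95% by the other. For Notch2 the widest was 35.3 kb in MC (chr3:98012727-98047987) and 55.0 kb in FL (chr3:98011172-98066152), both over the start. The widest Jag1 peaks lay in the gene and apart from its start, 22.0 kb in MC (chr2:137076137-137098179) and 16.1 kb in FL (chr2:137084477-137100579). For Notch3 they differed in place: in MC the widest, of 18.8 kb, lay at the far end of the gene (chr17:32109896-32128693), and in FL the widest, of 20.0 kb, lay within it (chr17:32136579-32156615), of which the MC list covered 33.4%. At Hes1 the widest was 45.5 kb from the gene in MC (chr16:30012039-30027748, 15.7 kb wide) and 90.7 kb away in FL (chr16:29962944-29986405, 23.5 kb wide). At Dll1 it lay over the start in MC (chr17:15371633-15377818) and 80.9 kb from the gene in FL (chr17:15282160-15290798).

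Of the ATAC regions of the 9 genes, 56.7% lay under combined H3K27ac in MC and 56.7% in FL, beside 55.5% and 55.4% of all regions. Under MC peaks alone lay 18 of the 215 and under FL peaks alone another 18, of which Hes1 held 8 for MC and 5 for FL. All 4 regions of Hey1 under 1 tissue's list alone were under that of FL. The share of all regions under 1 list alone was not computed, so these counts cannot be set against it and are a description only. Of the exclusive regions named above, those in the Notch2 and Notch3 genes, the Jag2 region and the FL site 181 kb from Hes1 lay under H3K27ac in both cartilages. The Hey2 and Jag1 sites at 167, 320 and 529 kb and the MC site near Hes1 lay under H3K27ac in neither. The lists of single H3K27ac libraries held much narrower peaks and covered only 0.723% to 0.976% of the MC and 0.942% to 1.81% of the FL combined bases at the 9 genes, beside 0.899% to 1.23% over all combined peaks, so no replicate error can be given for the combined values.

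Of 45 other Notch pathway genes, 44 were tested, and none passed in any comparison (0%, as over all genes). With an unadjusted p under 0.05 there was 1 for MC minus FL, 3 for E14.5 MC minus E12.5 mandible and 4 for E14.5 FL minus E12.5 mandible, of 44 each, where 5.25%, 5.66% and 12.3% of all genes had one. The median log2 difference of the 44 was 0.21, 0.19 and -0.03 in these 3 comparisons, beside 0.03, 0.23 and 0.25 over all genes. The smallest p for MC minus FL was at Numbl, an inhibitor of Notch receptors, with 5.94, 7.55 and 5.79 kb in the MC libraries against 3.88, 3.31 and 3.14 kb in the FL libraries (log2 difference 0.81 ± 0.35, SE, limma, n = 3 and 3; adjusted p = 0.946). Hes3 (-1.09) and Dll3 (1.10) came next.

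Rbpj, the DNA-binding partner of all Notch receptors, had the smallest p in both comparisons with the E12.5 mandible. It had 11.4, 8.57 and 9.35 kb in the MC libraries, 16.2, 10.7 and 14.2 kb in the FL libraries, and 1.09 and 6.18 kb in the E12.5 libraries. Both E12.5 libraries thus lay below all 6 cartilage libraries, where 16.5% of all genes had every FL library above both E12.5 libraries and 18.4% had the MC libraries all above or all below them. The log2 difference was 1.65 ± 0.56 for MC (SE, limma, n = 3 and 2; adjusted p = 0.712) and 2.11 ± 0.56 for FL (adjusted p = 0.397). Without E12.5 replicate 1 it was 0.61 for MC and 1.07 for FL, and without E12.5 replicate 2 it was 2.69 and 3.15. Hes3 (-1.41) and Adam17 (0.85), a protease that cuts Notch receptors, followed for MC, and Dll3 (-1.86) and Hes5 (-1.42) for FL. Without E12.5 replicate 1 the FL differences of Dll3 and Hes5 were -1.27 and -0.69, and without E12.5 replicate 2 they were -2.45 and -2.14.

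In combined H3K27ac, 38 of the 45 other genes passed the filter, 6 were past 2-fold higher in MC than in FL and 3 past 2-fold lower, beside the 18.6% and 15.2% of all genes. The highest ratios were at Dtx3, a Deltex ubiquitin ligase, with 15.5 kb in MC while listed at 0 in FL, at Aph1a, a part of gamma-secretase (3.54 kb in MC, listed at 0 in FL), and at Dlk2 (3.43 kb in MC, listed at 0 in FL). The other higher genes, named after their values were seen to complete the count, were Lfng, another Fringe enzyme, with 48.8 kb in MC against 13.8 kb in FL, Neurl1a, with 45.1 kb in MC against 21.1 kb in FL, and Snw1, with a log2 ratio of 1.01. The lowest were at Rfng, a Fringe enzyme that adds sugar to Notch receptors, listed at 0 in MC with 5.66 kb in FL, at Numbl, with 13.3 kb in MC against 48.7 kb in FL, and at Pofut1, an enzyme that adds fucose to them, with 18.2 kb in MC against 41.9 kb in FL. Numbl was higher in ATAC and lower in H3K27ac in MC by these values. All of these are assigned lengths, and cover over the gene itself was not computed for the other pathway genes. A gene listed at 0 may therefore lie under a wide peak counted for a neighbour, as Hey1 did. The lowest signal was also higher in the FL list (25799) than in the MC list (16925). A weak peak could thus be listed in MC and not in FL, as at Hey2, so a 0 in FL does not place the mark in MC alone.

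As a description of pattern, the gene closest to each of the 9 over the 8 ATAC libraries was found by the root-mean-square distance of log2 length, each gene centred on its own mean, among 16172 other genes. Hes1 was closest to Rpl10 (0.0535), Jag1 to Fam13a (0.0561) and Notch3 to Cdc25b (0.0735). Notch2 was closest to Etfbkmt (0.102), Hey2 to Rap1gds1 (0.110), Dll1 to Dgkg (0.135), Notch1 and Jag2 to Rfx2 and Pip5k1c (0.160 each), and Hey1 to Ccdc178 (0.231). These distances compare with a spread of each gene about its own mean of 0.322 (Hes1) to 0.923 (Hey1). All values come from the same 8 lists, so any 2 genes share the differences between lists. None of the 9 genes was the closest to another of the 9.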

How the data were processed

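Trim Galore, Bowtie2, SAMtools, Genrich (an ATAC-seq peak caller) and SEACR (a CUT&Tag peak caller) are the tools named in the submitters' processing notes, with mm10 as the build. Their versions and thresholds are not given in the sources used here. In each ATAC list as deposited, a peak has the authors' score, signal and -log10 p value, and in each H3K27ac list it has their total signal. Only the signal was used, to rank peaks within a list. How the authors made the combined lists is not given in the sources used here, and they were used as pooled values with no n and no test. The members and gene lists were chosen with earlier results of these data known.

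Peak lengths were summed per gene (gene spans and promoters from RefSeq, GRCm38.p6), each ATAC list was scaled to the same total, and log2(kb + 0.5) was fitted with limma 3.58.1 in R 4.3.3 over all 8 ATAC libraries, for genes averaging at least 0.3 kb, with Benjamini-Hochberg adjustment and a threshold of 0.05. For combined H3K27ac, ratios of (scaled kb + 1) were taken for genes averaging at least 1 kb, and a gene was called past 2-fold. Other steps used Python 3.11.15. The fit was tested on simulated data. Read depth is unknown, so no counting interval is given. Alternatives changed the pseudocount, filter, scaling, unit (number of peaks), assignment limit (100 kb), peak ranking (30000 peaks of highest signal), the libraries fitted and the replicate block. The genes named were all 9 members, the other pathway genes of smallest p (3 per comparison) or largest H3K27ac ratio (3 each way), and the closest gene to each member. Hi-C and 4C samples were not analysed here.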

Additional observations from a re-analysis of the deposited data

How the results depend on the processing

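No gene was called by limma in any of the 3 comparisons, and of the 27 differences of the Notch genes none passed with any alternative that kept all 8 libraries. Calls over all genes did appear for MC minus FL with a pseudocount of 0.1 kb (20), with the 30000 peaks of highest signal per list (10) and with the 2 groups fitted alone (8), and with a pseudocount of 0.1 kb for E14.5 MC (11) and E14.5 FL (6) minus E12.5 mandible; none was a Notch gene. Leaving out 1 library gave 0 to 8 calls for MC minus FL, 0 to 3694 for E14.5 MC and 0 to 6136 for E14.5 FL minus E12.5 mandible. Whether equal replicate numbers mark paired samples was not settled. Between MC and FL, same-number correlations of deviations were 0.0431, 0.0512 and 0.0476, each library correlating best with its own number. Different-number ones were -0.0469 to -0.0033. Same-number correlations with the E12.5 libraries were below 0, but deviations in a group of 2 mirror each other and cannot decide it. With a replicate block 0 genes were called in each comparison, and 0 with the block on the 2 groups alone, an alternative added after seeing the data.

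Without scaling the median difference over all genes was -0.13 for E14.5 MC and -0.09 for E14.5 FL minus E12.5 mandible, against 0.23 and 0.25 with it. Some small differences changed sign. With the number of peaks, MC minus FL was -0.13 at Notch3 and 0.0585 at Notch2, E14.5 MC minus E12.5 mandible was 0.76 at Jag2, and E14.5 FL minus E12.5 mandible was -0.0253 at Hey2 and 0.00197 at Notch3. Unscaled, E14.5 MC minus E12.5 mandible was -0.0106 at Notch2, and E14.5 FL minus E12.5 mandible was -0.0435 at Hey2 and -0.38 at Dll1 (-0.0582 at Dll1 with 100 kb). With the peaks of highest signal, E14.5 MC minus E12.5 mandible was 0.34 at Hey2. With 1 library left out, signs changed within these ranges: for MC minus FL, -0.18 to 0.0312 at Hes1, -0.25 to 0.20 at Notch2 and -0.0814 to 0.28 at Notch3; for E14.5 MC minus E12.5 mandible, -0.51 to 2.30 at Hey1, -1.20 to 0.35 at Hey2, -0.55 to 1.66 at Jag1, -0.94 to 0.75 at Jag2, -0.0793 to 1.03 at Notch2 and -0.66 to 0.0406 at Notch3; for E14.5 FL minus E12.5 mandible, -0.0102 to 0.19 at Dll1, -1.08 to 1.74 at Hey1, -0.37 to 1.18 at Hey2 and -0.0371 to 1.07 at Notch2. The causes were not tested.

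Counts of exclusive regions at the 9 genes moved with the peaks of highest signal to 2 (MC against FL), 3 (FL against MC), 0 and 1 (E12.5 against MC and FL) and 13 (called in every library), where a call needed 50% of the region covered to 5 (E12.5 against MC) and 7 (every library), and within 100 kb to 2 and 3 (FL against MC and E12.5). Leaving out 1 library gave 4 to 7 and 5 to 11 regions for MC and FL against each other, 4 to 11 and 6 to 16 for MC and FL against E12.5, 10 to 47 for E12.5 against MC and against FL, and 23 to 26 in every library. For combined H3K27ac, the count past 2-fold higher was 0 with the peaks of highest signal and with a pseudocount of 5 kb, and the count lower was 0 by number of peaks and by bases over the gene, where the Hey1 ratio was 0.13. For combined ATAC, the count higher was 1 for MC over FL by number of peaks; it was 0 for E14.5 MC over E12.5 mandible unscaled, with the peaks of highest signal and with a pseudocount of 2 kb, and 0 for E14.5 FL over E12.5 mandible with each of these but the last, within 100 kb and by number of peaks. The counts lower were 1 by number of peaks in both (Jag2 0.30 for E14.5 MC) and 1 for E14.5 MC with a pseudocount of 2 kb.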
